A study of Mus musculus with 6 samples.

Results

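A set of 10 chemokine genes was examined in mouse liver after knockdown of the lncRNA Hnf1aos1: Cxcl1, Cxcl9, Cxcl10, Cxcl11, Cxcl12, Cxcl13, Ccl2, Ccl5, Ccl6 and Ccl9. They were taken from the count table by gene symbol, and all 10 were found among its 40803 mouse genes. Cxcl10 was the only one of them called between the groups, at 1.85 times its control level, while its neighbours on chromosome 5, Cxcl9 and Cxcl11, were not called. Cxcl1 and Ccl6 were high in 2 of the 3 knockdown libraries and near the control level in the third.

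Chemokines are small secreted proteins that draw leukocytes along a gradient through G protein-coupled receptors. They are grouped by the spacing of their first cysteines into CXC and CC classes. Cxcl9, Cxcl10 and Cxcl11 are induced by interferons and act on Cxcr3 of T and NK cells. Cxcl1 is induced by NF-kappaB, for example by IL-1 and TNF, and draws neutrophils through Cxcr2. In the inflamed liver, hepatocytes, Kupffer cells (the resident macrophages), endothelial cells and stellate cells can all be sources. Cxcl12 and Cxcl13 are called homeostatic, because they are also made without inflammation.

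Liver RNA was sequenced from 3 libraries of the rAAV8-Scramble group and 3 of the rAAV8-Hnf1aos1 group, here called scramble and knockdown, all from normally fed C57BL6 mice. Per the methods of the study, the mice were males, about 6 weeks old when 100 µL of virus was injected, and were examined after 4 weeks. Both groups carried the same kind of vector, a recombinant adeno-associated virus of serotype 8 with an EGFP reporter and a hairpin RNA driven by the U6 promoter, so that both had virus and only the hairpin sequence differed, against Hnf1aos1 or scrambled. U6 is active in most cell types, and the sequenced tissue was whole liver. Per the methods the RNA came from 6 mice, 3 in each group, so the p-values describe the spread between mice. Gene counts summed to between 14704746 and 16532510 in the scramble libraries and between 18021614 and 19462398 in the knockdown libraries. Hnf1aos1 itself, the targeted gene, had normalized counts of 512, 491 and 620.3 in scramble replicates 1 to 3 and of 278, 258 and 433 in knockdown replicates 1 to 3. The groups did not overlap, but the gene missed the threshold (log2 fold change −0.74, standard error 0.195, adjusted p = 0.0625 from edgeR); it is antisense, and although the methods name a stranded library kit, the strand setting of the counting is not given. Knockdown replicate 3, which kept the most Hnf1aos1, is also the library in which Cxcl1 and Ccl6 stayed low, and several results that rest on it are given with and without it.

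Normalized counts are raw counts divided by the library size after TMM scaling, relative to the mean of the 6 sizes. Log2 fold changes are knockdown over scramble, and a gene counts as called where edgeR's quasi-likelihood F-test gave an adjusted p under 0.05, adjusted by Benjamini-Hochberg over the 16327 genes tested. All 10 chemokines passed the filter on low counts. Of all genes tested 1032 were called, which is 6.32%, with 505 higher (3.09%) and 527 lower (3.23%). Among the chemokines 1 of 10 was called, so close to this background that the count itself is no result about the chemokines. In 28.9% of all genes tested the libraries of the groups did not overlap, against 1 of the 10 chemokines, again Cxcl10. Of the 10, 6 had a log2 fold change above 0, with a median of 0.22, against 8155 of 16327 and a median of −0.000396 over all genes tested. In whole tissue, fewer cells of a type and less RNA per cell cannot be told apart, and this holds for every level given here.

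**Figure D1:**
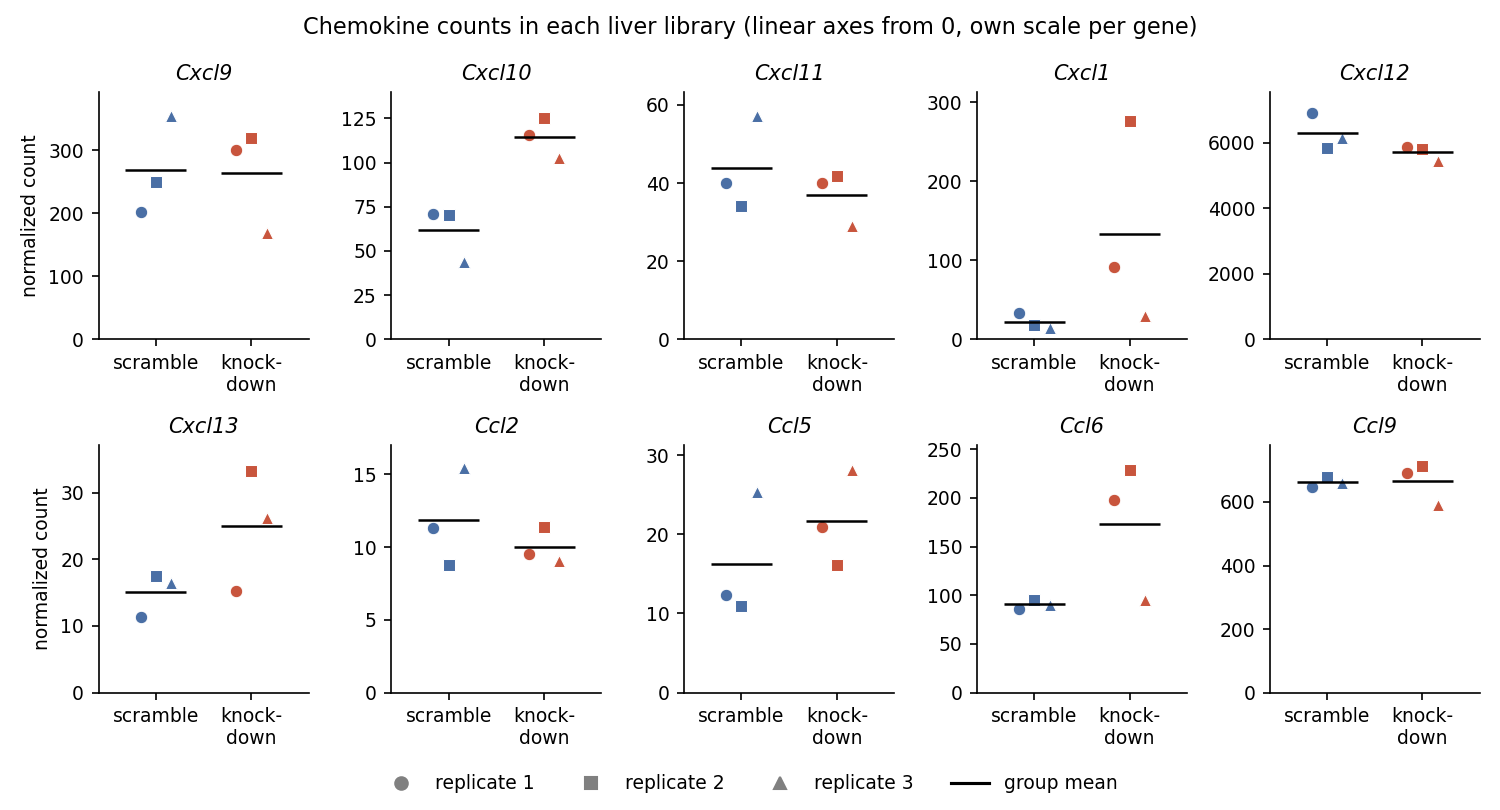
Normalized counts of the 10 chemokine genes in each liver library, on linear axes that start at 0 and have their own scale for each gene. Points are libraries, with the shape giving the replicate, and black lines are the means of 3 libraries. The knockdown libraries of Cxcl10 (102 to 125) lie above all scramble libraries (44 to 70.8), while in Cxcl1 and Ccl6 knockdown replicate 3 lies near the scramble libraries.

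Cxcl9, Cxcl10 and Cxcl11 lie next to each other on the − strand of chromosome 5, at 92321347 to 92328079, 92346638 to 92348889 and 92359544 to 92365485. Cxcl1 (90891241 to 90893115) and Cxcl13 (95956951 to 95961068) are on the + strand of the same chromosome, and Cxcl12 is on the + strand of chromosome 6 (117168535 to 117181367). The 4 CC genes are on chromosome 11, with Ccl2 (82035571 to 82037453) on the + strand and Ccl5 (83525778 to 83530518), Ccl9 (83572919 to 83578636) and Ccl6 (83587882 to 83593087) on the − strand. These are the whole genes in GENCODE M21 on GRCm38, matched by symbol. The methods name GRCm38 for the alignment and the submitters' processing notes name GRCm39, so the positions describe the genes and not the counting. The genes are annotated as protein coding except Cxcl11, which is annotated as a polymorphic pseudogene, a gene that is intact in some mouse strains and not in the reference strain. No stretch of 75 bases from the transcripts of any of the 10 occurs in the transcripts of another gene, so that reads of that length have no identical copy elsewhere among annotated transcripts.

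Promoters are shown for the 5 genes whose contrasts carry the results, which are Cxcl10 and its neighbour Cxcl9, Cxcl1, and the neighbours Ccl6 and Ccl9. RefSeq promoter windows (GRCm38.p6, 250 bases before to 50 bases after the gene start, written 5′ to 3′ on the strand of the gene) were matched by symbol for 7 of the 10. Their positions are chr5:92348840-92349139 (−) for Cxcl10, chr5:92328030-92328329 (−) for Cxcl9, chr5:90890995-90891294 (+) for Cxcl1, chr11:83593038-83593337 (−) for Ccl6 and chr11:83578587-83578886 (−) for Ccl9. Capitals mark motif matches found by script on both strands.
Cxcl10: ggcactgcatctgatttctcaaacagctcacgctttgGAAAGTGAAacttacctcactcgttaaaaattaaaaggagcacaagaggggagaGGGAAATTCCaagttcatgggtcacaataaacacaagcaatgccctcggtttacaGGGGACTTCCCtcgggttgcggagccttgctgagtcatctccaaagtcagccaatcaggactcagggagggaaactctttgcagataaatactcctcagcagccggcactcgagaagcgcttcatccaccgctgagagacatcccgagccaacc
Cxcl9: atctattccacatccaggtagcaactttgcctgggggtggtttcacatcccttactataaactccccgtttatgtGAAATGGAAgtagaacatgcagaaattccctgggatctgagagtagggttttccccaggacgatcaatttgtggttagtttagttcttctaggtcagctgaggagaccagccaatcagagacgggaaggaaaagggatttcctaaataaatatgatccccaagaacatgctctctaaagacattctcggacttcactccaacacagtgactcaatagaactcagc
Cxcl1: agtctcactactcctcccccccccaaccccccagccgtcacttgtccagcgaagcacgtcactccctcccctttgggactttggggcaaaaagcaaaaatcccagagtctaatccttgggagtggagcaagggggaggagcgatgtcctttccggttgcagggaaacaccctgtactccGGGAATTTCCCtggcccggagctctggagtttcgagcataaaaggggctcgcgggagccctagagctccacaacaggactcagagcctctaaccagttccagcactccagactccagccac
Ccl6: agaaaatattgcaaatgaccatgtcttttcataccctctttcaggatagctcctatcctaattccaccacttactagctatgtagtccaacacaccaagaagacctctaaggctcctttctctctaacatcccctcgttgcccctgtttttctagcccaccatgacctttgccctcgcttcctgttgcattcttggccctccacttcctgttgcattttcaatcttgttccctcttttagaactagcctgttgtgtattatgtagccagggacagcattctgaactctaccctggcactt
Ccl9: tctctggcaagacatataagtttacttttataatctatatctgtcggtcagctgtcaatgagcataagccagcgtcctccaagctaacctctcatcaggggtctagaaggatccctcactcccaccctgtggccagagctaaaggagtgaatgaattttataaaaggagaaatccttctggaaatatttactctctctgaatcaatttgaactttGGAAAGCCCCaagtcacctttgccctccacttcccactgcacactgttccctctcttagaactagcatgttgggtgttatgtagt

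The motifs searched were the core of the interferon-stimulated response element (ISRE), GAAANNGAA, the gamma-activated site, TTCNNNGAA, and the NF-kappaB consensus. Cxcl10 held an ISRE core (GAAAGTGAA) from −213 to −205 of the start. It also held 3 NF-kappaB matches, GGGAAATTCC from −159 to −150 and an overlapping pair, GGGGACTTCC and GGGACTTCCC, between −104 and −94. Cxcl9 held only an ISRE core (GAAATGGAA, −175 to −167). Cxcl1 held an overlapping pair of NF-kappaB matches, GGGAATTTCC and GGAATTTCCC, between −71 and −61, and no ISRE core. Ccl9 held 1 NF-kappaB match (GGAAAGCCCC, −35 to −26) and Ccl6, Cxcl12 and Cxcl13 held none of the 3 motifs. The gamma-activated site was in none of the 7 windows. Of all 32851 windows of the same length, 8.56% held the ISRE core, 8.3% the gamma-activated site and 8.46% the NF-kappaB consensus. A match describes letters only and is not evidence of binding.

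Cxcl10, which attracts activated T cells and NK cells through Cxcr3, had raw counts of 69, 64 and 40 in scramble replicates 1 to 3. In knockdown replicates 1 to 3 it had 121, 132 and 113. Every knockdown library lay above every scramble library, also after scaling, with normalized counts of 70.8, 70.2 and 44 against 115, 125 and 102. The means were 61.7 ± 15.3 (SD, n = 3) and 114 ± 11.6 (SD, n = 3). The log2 fold change was 0.89 (standard error 0.209, 95% interval 0.43 to 1.34), with an adjusted p of 0.0328 from edgeR, and the gene rose. DESeq2 gave an adjusted p of 0.0142, where it called 7.4% of the genes with an adjusted p. It was called in each of the 8 alternatives that used all libraries, DESeq2 among them. The call was less firm when a library was left out. It held without scramble replicate 1 (adjusted p = 0.0481 from edgeR, with 3.74% of all genes called) and without knockdown replicate 3 (0.0145, 11.2%). It was lost when scramble replicate 2 (0.0655, 2.34%), scramble replicate 3 (0.133, 0.619%), knockdown replicate 1 (0.0679, 3.77%) or knockdown replicate 2 (0.113, 1.93%) was left out, and those 4 fits called none of the 10 chemokines. Its log2 fold change lay between 0.69 and 1.00 in these 6 fits.

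Cxcl9, the interferon-gamma-induced ligand of the same receptor, had the highest raw counts of the trio in every library, with 197, 228 and 322 in scramble livers and 315, 337 and 187 in the knockdown libraries. The groups overlapped, with normalized means of 269 ± 77.7 and 263 ± 82 (SD, n = 3 each). The lowest of the 6 libraries was knockdown replicate 3 (169) and the highest was scramble replicate 3 (354). The log2 fold change was −0.030 (95% interval −0.73 to 0.67, adjusted p = 0.963 from edgeR), so that the interval reached from 0.602 to 1.59 times the scramble level. Without knockdown replicate 3 it was 0.21, and without scramble replicate 3 it was also 0.21.

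Cxcl11, the third ligand of Cxcr3, had raw counts of 39, 31 and 52 in scramble livers and 42, 44 and 32 in the knockdown libraries. These sum to 122 (exact Poisson 95% interval 101 to 146) and 118 (97.7 to 141), where the intervals cover counting error only. After scaling the groups overlapped, and the log2 fold change was −0.24 (95% interval −0.85 to 0.36, adjusted p = 0.636 from edgeR). The C57BL/6 strain is known to carry a Cxcl11 allele that does not give a full protein, so that here the counts describe the RNA.

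Because these 3 genes lie side by side and were counted in the same libraries, their ratios within a library do not depend on how libraries are scaled; the ratios were added after the data had been seen. The raw count of Cxcl10 over that of Cxcl9 was 0.350, 0.281 and 0.124 in scramble replicates 1 to 3 and 0.384, 0.392 and 0.604 in knockdown replicates 1 to 3. Every knockdown ratio lay above every scramble ratio, with a mean difference of 0.97 on the log2 scale, or 0.75 without knockdown replicate 3. The step between the groups was narrow, from 0.350 to 0.384, and scramble replicate 3 stood far below the other two. Cxcl10 over Cxcl11 was 1.77, 2.06 and 0.769 in scramble livers and 2.88, 3 and 3.53 in the knockdown libraries, again without overlap (mean log2 difference 1.15). Without knockdown replicate 3 this difference was 1.06. With all libraries the exact two-sided permutation test gave p = 0.1 for each ratio, which is the smallest that 3 against 3 allow (0.1 also after adjustment over the 3 ratios computed).

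**Figure D2:**
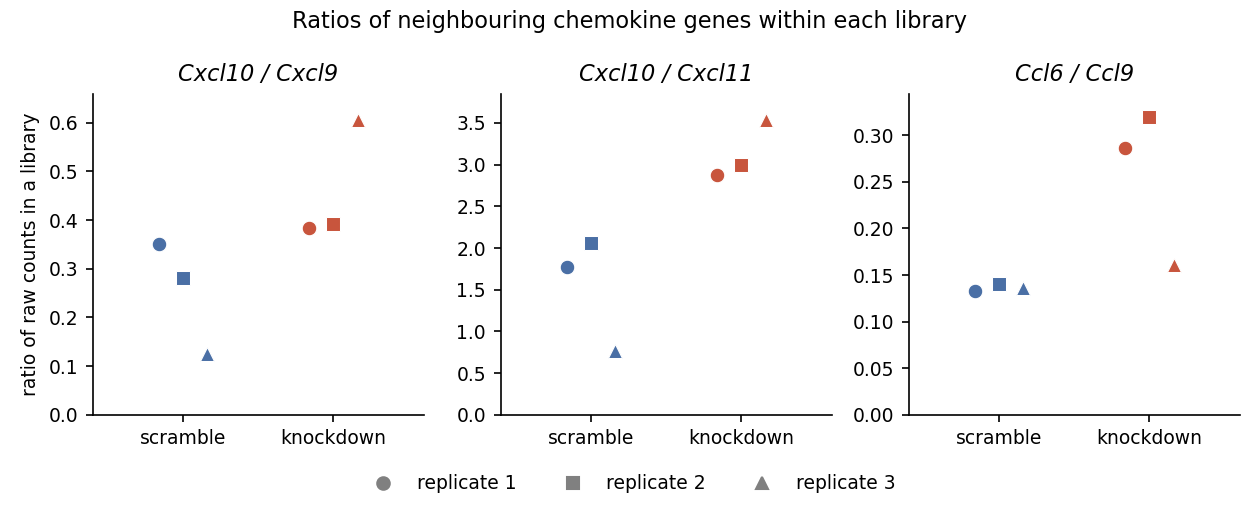
Ratios of the raw counts of neighbouring chemokine genes within each library, on linear axes from 0; points are libraries and the shape gives the replicate. In the 3 panels every knockdown library lies above every scramble library, with the smallest steps in Cxcl10 over Cxcl9 (0.350 to 0.384) and in Ccl6 over Ccl9 (0.141 to 0.161).

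Cxcl1, the neutrophil attractant, had the largest fold change of the 10 and the widest spread. Its raw counts were 32, 17 and 13 in the scramble libraries and 96, 291 and 33 in the knockdown libraries. Knockdown replicate 2 was far above the rest and replicate 1 was next, while replicate 3 lay within the scramble range after scaling (29.9 against 14.3 to 32.8 normalized counts). The means were 21.9 ± 9.69 and 133 ± 128 (SD, n = 3 each). The log2 fold change of 2.58 had a standard error of 0.992 and a 95% interval of −0.021 to 5.17, and the gene was not called (adjusted p = 0.217 from edgeR, 0.0593 from DESeq2). It was 1.45 without knockdown replicate 2 and 3.05 without knockdown replicate 3 (adjusted p = 0.192 and 0.0531 from edgeR), and no fit without 1 library called it. Neutrophil markers were counted beside it. The summed TPM of 10 such markers was 2.15 to 3.39 in the scramble libraries and 7.92, 9.82 and 4.66 in knockdown replicates 1 to 3, so that their order among the knockdown libraries was that of Cxcl1. Of the 10, 2 (Ly6g and Mpo) had no count in any library, 1 of the 10 passed the filter (Csf3r, log2 fold change 0.44, adjusted p = 0.276 from edgeR), and S100a8 rested on 1 to 11 raw counts a library. The part of these cells in the Cxcl1 counts was not tested.

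Ccl6 and Ccl9 are neighbouring CC chemokines of rodents, made largely by myeloid cells, that act on Ccr1. Ccl6 had raw counts of 84, 87 and 82 in the scramble libraries, a tight group, and 207, 240 and 105 in the knockdown libraries. After scaling, knockdown replicate 3 (95.1) fell just below scramble replicate 2 (95.5), while the other knockdown libraries were at 197 and 228. The log2 fold change was 0.93 (standard error 0.294, 95% interval 0.26 to 1.61), with a raw p of 0.0122 and an adjusted p of 0.1 from edgeR, so that it was not called. It was called by DESeq2 (adjusted p = 0.0149), by edgeR with library sizes from the spike-ins, by edgeR with no filter on low counts, and by edgeR without knockdown replicate 3, where the log2 fold change was 1.23 (adjusted p = 0.000243).

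Ccl9 had raw counts of 631, 619 and 600 in scramble livers and 724, 752 and 652 in the knockdown libraries. Relative to library size the groups overlapped, with normalized means of 662 ± 16.1 and 665 ± 65.8 (SD, n = 3 each). Its log2 fold change of 0.0062 had a 95% interval of −0.21 to 0.22 (adjusted p = 0.976 from edgeR), the narrowest beside that of Cxcl12, and changes above 1.16 times lay outside that interval. The ratio of Ccl6 to Ccl9 within a library was 0.133, 0.141 and 0.137 in scramble livers and 0.286, 0.319 and 0.161 in the knockdown libraries. No knockdown library fell into the scramble range, with a mean log2 difference of 0.84, or 1.14 without knockdown replicate 3 (exact permutation p = 0.1 with all libraries, the smallest possible).

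Ccl2 and Ccl5 are inflammatory CC chemokines, Ccl2 drawing monocytes through Ccr2 and Ccl5 drawing T cells and monocytes through receptors such as Ccr1. Both were near the limit of the depth. Ccl2 had raw counts of 11, 8 and 14 in scramble livers and 10, 12 and 10 in the knockdown libraries, or 33 (exact Poisson 95% interval 22.7 to 46.3) against 32 (21.9 to 45.2) in all. The log2 fold change was −0.24 with an interval of −1.10 to 0.62 (adjusted p = 0.762 from edgeR). Ccl5 had raw counts of 12, 10 and 23 against 22, 17 and 31, with 1 high library in each group, replicate 3 in both. Its log2 fold change of 0.43 had an interval of −0.44 to 1.3 (adjusted p = 0.551 from edgeR). For neither gene was a difference detectable at this depth, and the intervals include 1.54-fold and 2.46-fold increases.

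Cxcl12, which holds leukocytes and progenitors in place through Cxcr4, was by far the most counted of the 10, with 6739, 5319 and 5594 raw counts in scramble livers and 6152, 6117 and 6024 in the knockdown libraries. After scaling the groups overlapped, with knockdown libraries at 5867, 5813 and 5456 against 6914, 5838 and 6152. The log2 fold change was −0.14 (95% interval −0.36 to 0.075, adjusted p = 0.415 from edgeR). Cxcl13, the attractant of B cells through Cxcr5, had raw counts of 11, 16 and 15 against 16, 35 and 29. Knockdown replicates 2 and 3 were high and replicate 1 was in the scramble range, and the log2 fold change of 0.72 had an interval of −0.093 to 1.54 (adjusted p = 0.269 from edgeR). Its sums of 42 and 80 counts have Poisson intervals of 30.3 to 56.8 and 63.4 to 99.6, which do not meet, but these cover counting error and not the spread between libraries.

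**Figure D3:**
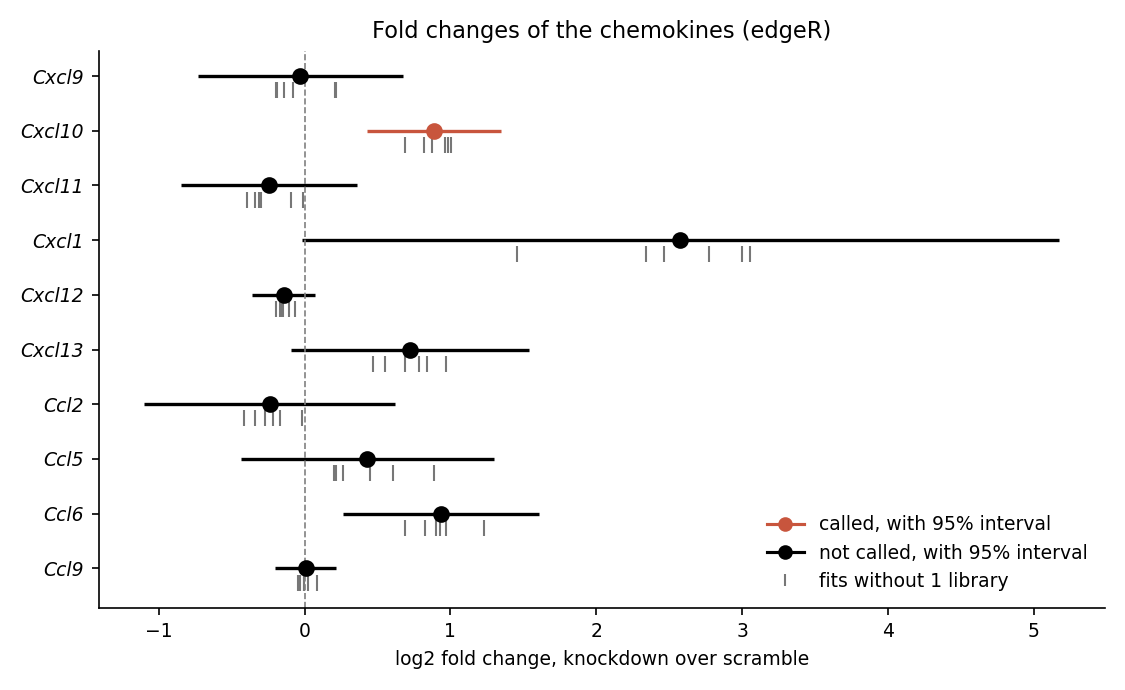
Log2 fold changes (knockdown over scramble) of the 10 chemokines, with 95% intervals from edgeR; grey ticks are the values of the 6 fits that each left out 1 library. Cxcl10 is coloured as the only called gene (0.89), Cxcl1 has the widest interval (−0.021 to 5.17), and the intervals of Cxcl12 and Ccl9 are the narrowest.

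Levels of different genes were compared on the deposited TPM scale, which accounts for transcript length. In the scramble group Cxcl12 was highest at 115 ± 10.3 TPM (SD, n = 3), followed by Ccl9 at 28.7 ± 0.9 and Cxcl9 at 12.1 ± 3.85, and the libraries of these 3 genes did not overlap those of the next gene in the order. Then came Ccl6 (8.22 ± 0.422), Cxcl10 (7.27 ± 1.64), Ccl5 (4 ± 2.08), Cxcl11 (3.57 ± 1.09), Cxcl1 (2.98 ± 1.28), Ccl2 (1.92 ± 0.6) and Cxcl13 (1.68 ± 0.381), with each overlapping the next. In the knockdown group Cxcl12 (98.6 ± 6.25 TPM) and Ccl9 (27.3 ± 3.02) had the highest means. Cxcl12 lay apart. The libraries of Ccl9 (23.9 to 29.5 TPM) lay above all those of Ccl6, Cxcl10 and Cxcl9 but overlapped those of Cxcl1 (3.81 to 35). In knockdown replicate 2 Cxcl1, at 35 TPM, lay above Ccl9, at 28.7. By mean, Cxcl1 (17 ± 16.1), Ccl6 (15 ± 6.03), Cxcl10 (12.8 ± 1.33) and Cxcl9 (11.2 ± 3.58) came next, and neighbours in this order overlapped. Within each scramble library Cxcl9 lay above Cxcl10 on this scale, with 8.97, 11 and 16.4 against 8.29, 8.14 and 5.38 TPM. Within each knockdown library Cxcl10 lay above Cxcl9, with 13.5, 13.8 and 11.3 against 13.3, 13.3 and 7.1 TPM, narrowly in replicates 1 and 2. Ccl5 followed at 5.05 ± 1.38 TPM, with no overlap with either neighbour, and Cxcl11 (2.85 ± 0.565), Cxcl13 (2.6 ± 0.881) and Ccl2 (1.53 ± 0.171) were lowest.

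The receptors of these ligands were mostly sparse. Cxcr3, shared by Cxcl9, Cxcl10 and Cxcl11, had raw counts of 6, 2 and 5 against 8, 8 and 6, Cxcr2 had 2, 1 and 3 against 2, 16 and 6, and Cxcr5 and Ccr1 were also low, so that these 4 were not tested. Ccr2, with 39, 30 and 72 raw counts against 42, 68 and 44 (log2 fold change −0.072, adjusted p = 0.923), and Cxcr4 (−0.37, adjusted p = 0.624) were tested and were not called by edgeR. These receptors were picked for their ligands after their values had been seen. Of the whole list of 23 chemokine receptors 13 were tested, 0 were called higher (3.09% of all genes were) and 2 lower (3.23%), with a median log2 fold change of −0.015. Ccr9, the receptor of Ccl25 on gut-homing lymphocytes, fell from 72.8, 64.8 and 70.4 to 31.5, 39.9 and 41.7 normalized counts (log2 fold change −0.88, adjusted p = 0.0369 from edgeR). Ackr4, a scavenging receptor that signals no migration and takes up Ccl25 among others, fell from 213, 193 and 166 to 131, 104 and 133 (−0.64, adjusted p = 0.0351 from edgeR). With a library left out, both were called only without knockdown replicate 3, in 1 of 6 fits, and with library sizes from the spike-ins Ackr4 was not called (adjusted p = 0.0663 from edgeR). The scavenger Ackr2, next to Ackr4 in mean TPM, was not called (−0.22, adjusted p = 0.389 from edgeR). Ackr3, an atypical receptor named after its values had been seen, had 19, 24 and 29 raw counts against 21, 12 and 13. It was not called either (−0.84, adjusted p = 0.18 from edgeR). Of the 5 atypical and chemokine-like receptors 3 lay below 0 and 2 above. The highest was Ccrl2, also named after its values had been seen, with 14, 25 and 16 raw counts against 30, 41 and 42. Its log2 fold change was 0.83, and edgeR did not call it.

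Of 26 other chemokines only 7 had enough counts to be tested, and edgeR called 0 of them (1 had an unadjusted p under 0.05, and DESeq2 called 0), with a median log2 fold change of 0.18. The most abundant were Cxcl16, the membrane-anchored ligand of Cxcr6 (0.20, adjusted p = 0.541 from edgeR), and Ccl25 (−0.16, adjusted p = 0.644 from edgeR). Of the list, 19 genes had too few counts for a test, among them 1 with no count in any library.

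Genes that act upstream of the chemokines were read from a list of their own. Of 27 ligands, receptors and factors of the interferon, TNF, IL-1 and NF-kappaB routes 24 were tested, 4 were called higher (3.09% of all genes were) and 1 lower (3.23%), and 22 lay above 0 (median log2 fold change 0.21, against −0.000396 over all genes). Irf9, the DNA-binding subunit of a complex that binds the ISRE, had normalized counts of 796, 602 and 685 against 1002, 1145 and 931 (log2 fold change 0.56, adjusted p = 0.0217), and Ifngr2, a chain of the interferon-gamma receptor, had 231, 285 and 236 against 521, 521 and 333 (0.87, adjusted p = 0.0233). Both rose in edgeR's test. Among the interferon genes all 12 that were tested lay above 0, with 3 called and a median of 0.26, but 9 did with library totals or the stricter filter, where Ifnar2, Jak2 and Tyk2, close to 0, turned below it. In the fits without 1 library 9 to 12 of the 12 lay above 0. Those fits called 0 to 5 of them, where 0.619 to 11.2% of all genes were called. Without knockdown replicate 2, Ifnar2, Tyk2 and Irf1 did not lie above 0. With 1 library left out, Irf9 stayed called in 3 of the 6 fits and Ifngr2 in 2.

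On the NF-kappaB side, Il1r1, the signalling receptor of IL-1, rose from 772, 705 and 691 to 1409, 1645 and 943 normalized counts (0.88, adjusted p = 0.0347 from edgeR). Nfkbia, which encodes the inhibitor IkappaB-alpha and is itself a target of NF-kappaB, fell from 458, 530.2 and 459 to 305, 252 and 322 (−0.72, adjusted p = 0.00867 from edgeR). Tnfrsf1a, the main TNF receptor and the most abundant of the list, had 770.5, 952 and 912 against 2075, 1965 and 1079 and was not called by edgeR (0.96, adjusted p = 0.0863), but was by DESeq2 (adjusted p = 4.1e-05). With 1 library left out, Nfkbia stayed called in 5 of the 6 fits and Il1r1 in 1. Without scramble replicate 3 no gene of the receptor, chemokine and upstream lists was called, where 0.619% of all genes were. In Ifngr2, Il1r1 and Tnfrsf1a knockdown replicate 3 was the lowest knockdown library, as in Ccl6, Cxcl1 and Cxcl10 but not in Ccl5 or Cxcl13. How often this held over all genes was not counted.

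**Figure D4:**
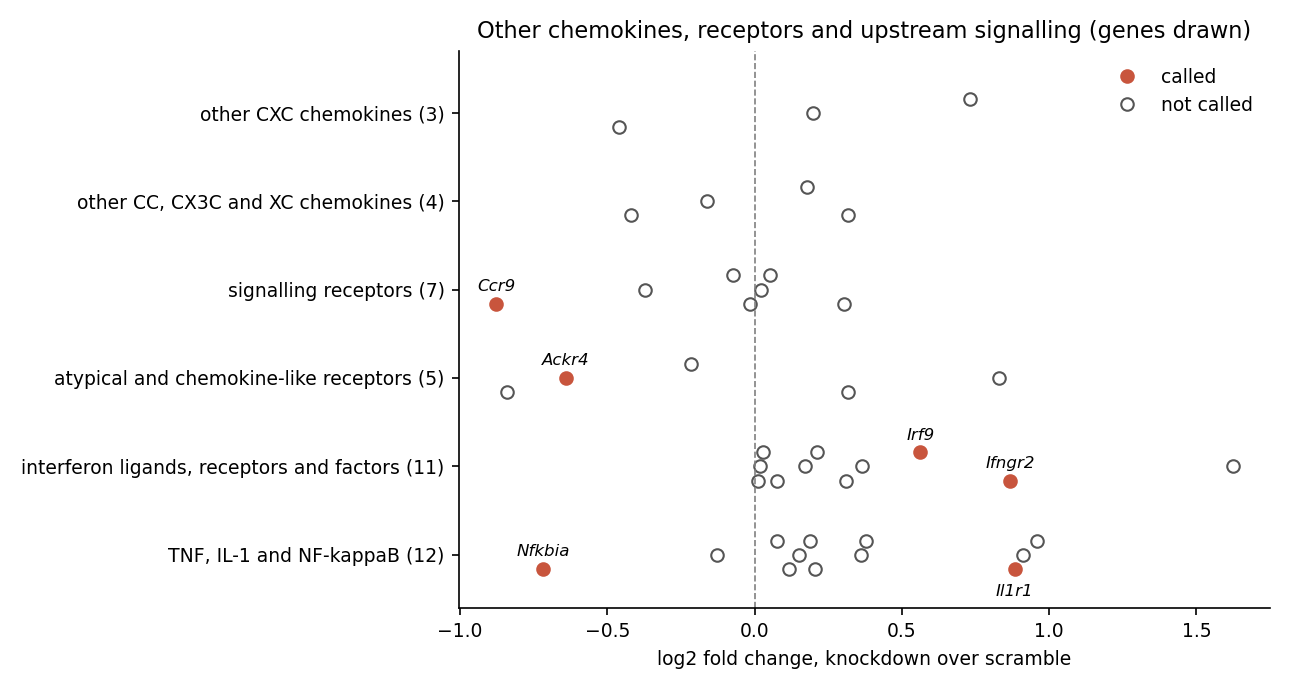
Log2 fold changes (knockdown over scramble) of tested genes among other chemokines, chemokine receptors and upstream signalling, by group with the number drawn; filled points are called by edgeR. The interferon genes drawn all lie above 0 (3 of them turn below it with library totals or the stricter filter), with Ifngr2 and Irf9 called, while Ccr9, Ackr4 and Nfkbia are called below 0.

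Markers of the cells that whole liver can hold were read beside the chemokines. Of 72 markers 53 were tested, 7 were called higher and 1 lower, beside 3.09 and 3.23% of all genes. Of the 7, 5 were among the 12 Kupffer cell and macrophage markers, of which all 12 lay above 0 (median 0.46), also under each other scaling, filter and test and with each library left out, for example C1qa at 0.55 (adjusted p = 0.0277 from edgeR) and Clec4f, specific to Kupffer cells, at 0.44 (adjusted p = 0.0327). Their summed TPM was 384, 319 and 346 in scramble livers and 495, 499.6 and 397 in the knockdown libraries, without overlap and 1.33 times higher on average. Knockdown replicate 3 was again the lowest of its group, as in Ccl6. Their number of calls went from 5 to 0 without knockdown replicate 2 and without scramble replicate 2 or 3. It went to 1 without knockdown replicate 1 and to 9 without knockdown replicate 3. In these fits, in the same order, the share of all genes called went from 6.32% to 1.93, 2.34, 0.619, 3.77 and 11.2%. Without scramble replicate 1 the number stayed at 5 while 3.74% of all genes were called, so number and share did not move together in every fit. The other 2 called higher were monocyte markers, Plac8 (0.85) and Fcgr1 (1.09), the latter also induced by interferon. Among the 5 monocyte markers tested 4 lay above 0 and 1 below, at −1.23 and not called by edgeR. With all libraries, the alternatives called Clec4f in 7 of 8 fits, Plac8 in 5 of 8 and Fcgr1 in 6 of 7, and summed monocyte markers overlapped (6.38 to 10.2 against 7.19 to 15.4 TPM). T and NK cell markers, the cells that Cxcl10 draws, overlapped as well (8.7 to 13.3 against 9.13 to 11.5 TPM), as did B cells (3.93 to 4.9 against 3.59 to 4.71), sinusoidal endothelium (141 to 149 against 123 to 144) and stellate cells (183 to 220.2 against 152 to 194). Summed cholangiocyte markers did not overlap (32.7 to 38.9 against 46.8 to 183 TPM), with the highest library carried by Spp1 in knockdown replicate 1. Of these 5 markers 4 were tested and 0 called by edgeR. In log2 fold change 3 lay above 0 and 1 below, from −1.03 to 1.79. Hepatocyte markers overlapped, and the 1 marker called lower was Tat (−0.72, adjusted p = 0.00766 from edgeR), an enzyme of tyrosine breakdown. For the summed levels the exact permutation test gave 0.1 at the lowest, and 0.3 after adjustment over the 9 cell types. The part of these cells in the chemokine levels was not tested.

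**Figure D5:**
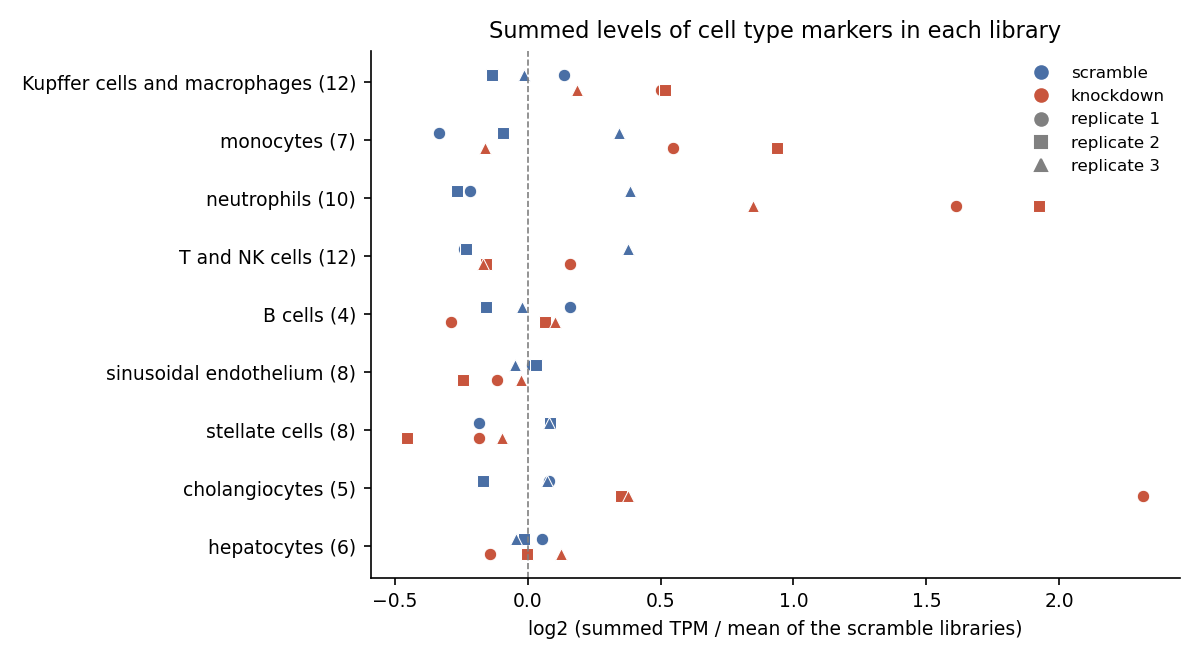
Summed TPM of the markers of 9 cell types in each library, as log2 of the ratio to the mean of the scramble libraries, with the number of markers in brackets; points are libraries and the shape gives the replicate. The sums of Kupffer cell, neutrophil and cholangiocyte markers do not overlap between the groups, while those of T and NK cell markers do.

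The genes whose pattern over the 6 libraries was most like that of a chemokine were found by the root mean square difference of log2 CPM values, each centred on its own mean, among all genes tested. Closest to Cxcl10, at 0.0838 and 0.0922, were the predicted gene Gm34148 and Slc39a4, a zinc importer, which was itself called (log2 fold change 0.85, adjusted p = 0.00933 from edgeR). Closest to Cxcl1 were Slfn4, an interferon-induced myeloid gene (difference 0.201, log2 fold change 2.73, adjusted p = 0.163 from edgeR), and Steap4, a metalloreductase (0.443, 2.68, adjusted p = 0.112 from edgeR). These stood farther away, since the spread of Cxcl1 itself was 1.4 on this scale, against 0.506 for Cxcl10. Near to Ccl6 was Orm1, an acute-phase protein of hepatocytes (0.101), with a log2 fold change of 1.03, not called by edgeR (adjusted p = 0.0772). None of the 10 was among the closest genes of another, including the neighbours of the same cluster. With 6 libraries and this many genes a close pattern can be found for most genes, and the likeness is a description only.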

How the data were processed

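RNA-seq libraries of mouse liver were compared between 3 rAAV8-Scramble and 3 rAAV8-Hnf1aos1 samples. Per the methods of the study, the authors trimmed reads with Trimmomatic, aligned them with STAR to GRCm38 (the submitters' processing notes name GRCm39) and counted exonic reads with featureCounts; the strand setting and annotation release are not given in the sources used here. The methods describe stranded poly(A) libraries and the labels depletion of ribosomal RNA. The deposited raw counts are whole numbers for 40895 features; TPM values and normalized counts, a signal scaled by library, were made by the authors too. Their table of fold changes and p-values from DESeq2 was not used.

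The 92 ERCC spike-in rows were left out. They held 1.38 to 1.52% of the counts in the scramble libraries and 1.18 to 1.24% in the knockdown libraries. In R 4.3.3 with edgeR 4.0.16, counts were scaled by TMM, filtered with filterByExpr and compared with robust quasi-likelihood tests on the group alone, and calls used an adjusted p under 0.05. DESeq2 1.42.0, its size factors, library totals, spike-in sizes, no filter, a mean of at least 50 counts, a block for the replicate number, voom of limma 3.58.1 and the 6 fits without 1 library were alternatives. Log2 CPM used a prior count of 2. Permutation tests were exact and two-sided. Intervals on summed counts are exact Poisson intervals. Scripts were tested on 3 simulated sets, in which 200 of 16327 genes were changed by a log2 fold change of 2 in either direction. At an adjusted p under 0.05, edgeR called 91.8% of the changed genes, DESeq2 90.8% and voom 91.5%. Of all their calls, 8.28% (edgeR), 11% (DESeq2) and 6.45% (voom) were unchanged genes, more than this threshold aims for. Replicate pairs differed by 7.69 to 31.7 per gene in chi-square, where sampling noise alone gives about 1, so none was a repeat. Same-numbered libraries did not deviate together (correlations of −0.0226 to 0.0231), and the numbers were not taken to pair samples.

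The chemokines and lists were chosen with earlier results of these data known. Genes named were the 10 chemokines and Hnf1aos1; of each other list at most 4 called genes per direction and the 2 with the highest mean TPM; of each marker group the 2 with the highest mean TPM and at most 3 called; and the 2 genes nearest in pattern to each chemokine. Some genes of this rule are not reported here. Others are marked as named after their values were seen.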

Additional observations from a re-analysis of the deposited data

How the results depend on the processing

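For the log2 fold changes of the 10 chemokines, 69 values from fits with other scalings, filters and tests kept their direction and their side of the threshold, 3 became called and 4 reversed, and of those from fits without 1 library 49 kept both, 1 became called, 4 lost the call and 6 reversed. Of the ratios of the deposited TPM and normalized counts, which have no test, 28 kept their direction and 2 did not, both of Ccl9 (−0.069 and −0.067 with 0.1 and 1 added to TPM). The chemokines called numbered 1 with all libraries, 2 with DESeq2, with spike-in library sizes and with no filter on low counts (Cxcl10 and Ccl6), and 0 to 2 with a library left out. The reversals were in 3 genes, none of them called. Cxcl9 went to 0.17 and Cxcl12 to 0.061 with spike-in sizes, which moved the median of all genes to 0.20, and both stayed below that median. Cxcl9 lay between −0.20 and 0.21 in the fits without 1 library, with 0.21 without knockdown replicate 3 and without scramble replicate 3. Ccl9 went to −0.065 with library totals and −0.025 with the stricter filter, and lay between −0.045 and 0.088 in the fits without 1 library. With spike-in sizes 3394 genes were called in all, 16 of the pathway lists and 19 markers; with no filter 1902 in all and 17 markers. Markers called numbered 4 with library totals and 5 each with voom and the stricter filter, against 8. Leaving out 1 library gave 103 (without scramble replicate 3) to 1881 genes (without knockdown replicate 3), 0 to 10 of the pathway lists and 0 to 12 markers. Hnf1aos1 was called with DESeq2 (−0.74), voom (−0.77), no filter (−0.74) and the replicate block (−0.77), and lay between −1.01 and −0.60 in the fits without 1 library. The replicate block called 878 genes in all and 1 chemokine (Cxcl10), and no longer called Ccr9 (adjusted p = 0.0655) or Ackr4 (0.0526). The causes were not tested. The depth, with 3 counts equal to 0.154 to 0.204 CPM, limits what can be said of Ccl2, Ccl5, Cxcl13 and most other chemokines.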

Other observations

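Some genes around the chemokines stood out after their values had been seen and are given as values only. Ccl8, a monocyte attractant that was too sparse for the filter on low counts, had raw counts of 13, 9 and 8 in scramble livers and 0, 1 and 2 in the knockdown libraries, the opposite direction to Cxcl10. The sums were 30 (exact Poisson 95% interval 20.2 to 42.8) and 3 (0.619 to 8.77), where the intervals cover counting error only. With no filter on low counts edgeR gave a log2 fold change of −3.36 (adjusted p = 0.00229), DESeq2 gave no adjusted p for it, and the one left-out fit that tested it, without scramble replicate 3, gave −3.48 (adjusted p = 0.0942 from edgeR). Irf7, an interferon-induced factor that drives interferon genes, had 623, 283 and 403 raw counts against 1828, 1676 and 1064, without overlap (log2 fold change 1.62, adjusted p = 0.0696 from edgeR and 0.000878 from DESeq2), while Irf1, which responds to interferon-gamma, had 402, 375 and 420 against 452, 567 and 427 (0.077, adjusted p = 0.762 from edgeR). The interferon ligands on the list, Ifnb1 and Ifng, were at the limit of detection, and other interferons were not read. Ifnb1 had no count in any library (a count of 0 allows up to 3 counts, or 0.154 to 0.204 CPM), and Ifng had 1 count in scramble livers and 4 in the knockdown libraries in all, the 4 in knockdown replicate 1. Tnf summed to 9 and 26 counts.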
